A study of Homo sapiens with 12 samples.

Results

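The 49 genes of the DNA replication machinery described here were taken by symbol from the deposited count table. All 49 were found among its 59050 gene names, and all 49 passed the filter on low counts with 16208 genes tested in all. They fall into 7 roles, namely origin licensing (6 genes), the replicative helicase (12), DNA polymerases and primase (9), the sliding clamp and its loaders (7), single-strand binding and Okazaki fragment maturation (5), deoxynucleotide supply (4), and fork protection with chromatin assembly (6).

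The libraries come from MyLa, an established line from cutaneous T cell lymphoma (CTCL), grown in all groups with interleukin-2 at 20 ng/mL. Cells received DMSO, romidepsin at 3.2 nM, afatinib dimaleate at 5.7 uM, or both drugs at these doses for 24 h, with the DMSO volume of every group matched to the combination. Each of the 4 groups had 3 libraries of bulk RNA. Romidepsin is an inhibitor of histone deacetylases, afatinib blocks kinases of the ERBB receptor family, and the stated aim of the series concerns how the drugs act in synergy. One cell line stands for the disease here. The labels do not name separate cultures for the 3 libraries of each group, so the spread behind the p-values is that among these libraries and may be technical.

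DNA replication starts at origins. In G1 the origin recognition complex (ORC), CDC6 and CDT1 load rings of MCM2 to MCM7 onto DNA, and in S phase CDC45 and the GINS complex turn each ring into a working helicase. Polymerase alpha with primase starts each strand, polymerases delta and epsilon extend it on the PCNA clamp, and ribonucleotide reductase supplies the deoxynucleotides. Many of these genes are transcribed near the entry into S phase through E2F factors, so their transcripts mark proliferating cells, including lymphoma cells.

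Promoter sequences are shown for the members that fell most and least in the combination, because E2F control at the promoter is the best known shared feature of this machinery. RefSeq promoters on GRCh38.p14, from 250 bases before to 50 after a transcription start, were matched by symbol for 42 of the 49 members, with 53 promoters in all. On either strand, 4 E2F words were searched (TTTCCCGC, TTTGGCGC, TTTCGCGC and TTTGCCGC). At least 1 of these words stood in 21 of the 53 member promoters (39.6%), against 3.31% of 35116 promoters of the same length. The CCAAT box, searched as CCAAT on either strand, stood in 58.5% of the member promoters and in 34.6% of all. The cell cycle homology word TTTGAA stood in 1.89% of the member promoters, which was RRM1 alone, and in 15.2% of all. These matches are descriptions of letters and not of bound sites.

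The 260 bases shown run 5′ to 3′ on the coding strand from 250 bases before the start to 10 after it, and capitals mark the words found. GINS3, MCM7 and RRM1 had the largest falls in the combination among the members with a promoter in the table. GINS3 (chr16:58392221-58392480, plus strand) held 1 E2F word across its start, MCM7 (chr7:100101388-100101647, minus strand) held 2 E2F words and 3 CCAAT boxes, and RRM1 (chr11:4094435-4094694, plus strand) held 1 CCAAT box and the TTTGAA word. In MCM7 the last E2F word and the last CCAAT box overlap.
GINS3: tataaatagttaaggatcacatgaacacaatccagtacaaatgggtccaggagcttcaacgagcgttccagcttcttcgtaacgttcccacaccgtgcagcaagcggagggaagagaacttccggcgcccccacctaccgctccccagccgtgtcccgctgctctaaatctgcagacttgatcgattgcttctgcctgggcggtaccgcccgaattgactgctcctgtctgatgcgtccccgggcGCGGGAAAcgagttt
MCM7: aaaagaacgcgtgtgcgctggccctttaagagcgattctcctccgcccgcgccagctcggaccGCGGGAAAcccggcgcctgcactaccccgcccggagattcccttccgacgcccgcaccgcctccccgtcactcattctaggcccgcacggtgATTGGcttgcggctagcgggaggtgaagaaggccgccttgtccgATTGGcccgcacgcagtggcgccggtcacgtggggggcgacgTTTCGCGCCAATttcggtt
RRM1: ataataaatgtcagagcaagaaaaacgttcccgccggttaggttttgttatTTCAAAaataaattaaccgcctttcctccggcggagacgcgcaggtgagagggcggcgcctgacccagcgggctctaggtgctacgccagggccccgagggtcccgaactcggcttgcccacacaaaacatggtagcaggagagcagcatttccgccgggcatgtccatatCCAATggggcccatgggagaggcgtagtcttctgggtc

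SLBP, RRM2 and PRIM2 stood at the other end, with values above 0 in the combination. SLBP (chr4:1712310-1712569, minus strand) and PRIM2 (chr6:57314555-57314814, plus strand) held none of the 3 motifs in this window, and RRM2 (chr2:10122489-10122748, plus strand) held 3 CCAAT boxes and no E2F word.
SLBP: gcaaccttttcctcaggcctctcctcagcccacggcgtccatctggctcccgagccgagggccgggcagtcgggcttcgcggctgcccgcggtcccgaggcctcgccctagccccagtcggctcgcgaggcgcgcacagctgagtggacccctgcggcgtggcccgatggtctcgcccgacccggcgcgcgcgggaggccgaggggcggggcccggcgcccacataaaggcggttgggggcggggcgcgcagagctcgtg
RRM2: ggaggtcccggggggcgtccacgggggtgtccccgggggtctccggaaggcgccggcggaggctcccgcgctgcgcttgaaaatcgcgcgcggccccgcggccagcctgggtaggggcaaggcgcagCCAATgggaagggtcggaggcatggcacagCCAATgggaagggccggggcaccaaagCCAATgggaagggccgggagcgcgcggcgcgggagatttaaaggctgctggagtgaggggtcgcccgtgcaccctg
PRIM2: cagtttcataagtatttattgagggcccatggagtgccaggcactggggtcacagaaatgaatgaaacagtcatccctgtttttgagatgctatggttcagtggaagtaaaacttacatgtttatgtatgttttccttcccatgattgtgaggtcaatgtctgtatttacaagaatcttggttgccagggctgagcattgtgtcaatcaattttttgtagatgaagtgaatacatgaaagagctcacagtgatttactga

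A stretch of 90 bases of the MCM6 promoter (chr2:135876514-135876603, minus strand) was added after its words were seen, because it carries 4 overlapping E2F words in 2 copies of an inverted pair. It also holds 1 CCAAT box, on the opposite strand.
MCM6: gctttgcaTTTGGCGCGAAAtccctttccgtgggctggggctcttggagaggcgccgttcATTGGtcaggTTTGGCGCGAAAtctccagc

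Members with and without an E2F word overlapped in their changes. The 21 members with an E2F word had a median log2 fold change of -0.84 with romidepsin, -0.19 with afatinib and -1.21 in the combination. The 21 members whose promoters held no E2F word had medians of -0.58, -0.19 and -1.0. In the combination the values ran from -2.79 to -0.29 with an E2F word and from -2.26 to 0.44 without one. The difference between the 2 sets was not tested.

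Libraries held 8972228 to 12696653 counts, so the level of 3 counts was 0.229 to 0.344 CPM (counts scaled to library size with TMM factors), which covers counting error only. Mitochondrial transcripts took 10.7% to 14.8% of counts. Of 12 T lymphocyte markers 7 had over 10 counts in a library, while CD4 and LCK stayed at 1 count or fewer, CD7 at 2 or fewer, CD3E at 4 or fewer and CD5 at 5 or fewer. The summed T lymphocyte markers, led by IL2RA, moved with treatment, at 1540 to 1630 CPM in DMSO, 564 to 581 with romidepsin, 1070 to 1110 with afatinib and 320 to 335 in the combination. Single markers did not all follow the sum, since PTPRC went from a mean of 22 CPM in DMSO to 42.9 with romidepsin, and CD8A from 9.33 to 15.6 with afatinib. The fibroblast list (COL1A1, COL1A2 and COL3A1, with DCN at 0) summed to 173 to 199, 26 to 32.5, 97.5 to 101 and 14.7 to 17.2 CPM in the same order. Keratin KRT5 stood at 43 to 126 counts in 4 libraries (DMSO 1 and 2, afatinib 3 and combination 1) and at 1 or fewer in the other 8. The most abundant gene of the keratinocyte list, KRT10, did not follow KRT5, with means of 41.6 CPM in DMSO, 45 with romidepsin, 75.7 with afatinib and 74.3 in the combination. The 6 genes of that list, of which KRT1 was at 0, summed to 38.8 to 59.6, 43.2 to 46.6, 63.8 to 89.5 and 71 to 80.2 CPM in that order. The part of these markers in the results was not tested. The medians of members are given below with and without the 4 KRT5 libraries. Leaving these out leaves a single DMSO library, DMSO 3. DMSO 3 had the largest mitochondrial share of all libraries (14.8%) and the smallest share of member counts in DMSO (0.502%). In that setting, the absence of KRT5 libraries and the reliance on DMSO 3 cannot be told apart.

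Replication transcripts were fewest in the combination. The 49 members took 0.502% to 0.549% of all counts in the DMSO libraries, 0.475% to 0.492% with afatinib, 0.395% to 0.418% with romidepsin and 0.299% to 0.306% in the combination, with no overlap between groups. Their summed level was 5508 ± 222 CPM in DMSO, 4685 ± 96.9 with afatinib, 4198 ± 122 with romidepsin and 2938 ± 32.4 in the combination (SD, n = 3). Of these sums RRM2 alone made up 694, 612, 1280 and 795 CPM in that order, and it rose with romidepsin while most members fell. The combination had the lowest mean of the 4 groups for 39 members, romidepsin for 6 (ORC6, CDC6, GMNN, PRIM2, POLE and LIG1) and afatinib for 4 (RPA1, RPA3, RRM2 and SLBP). DMSO had the highest mean for 34 members. Such counts of lowest and highest means were not made over all tested genes. In bulk RNA, fewer cells in S phase and less of these transcripts per cell cannot be told apart.

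Romidepsin lowered 41 of the 49 members and raised 4 (RFC1, RPA1, RRM2 and SLBP), by edgeR's quasi-likelihood test with a Benjamini-Hochberg adjusted p below 0.05 over all tested genes. Of all tested genes 62.6% were called, 31.5% lower and 31.1% higher. The median log2 fold change of the members was -0.74, against 0 over all tested genes. At least 2-fold falls were found for 12 members, and for 10.9% of all tested genes. The 3 romidepsin libraries lay below the 3 DMSO libraries for 41 members, which was so for 32.6% of all tested genes. Without the 4 KRT5 libraries the median of the members was -0.62, against 0.03 over all tested genes. In that setting MCM10 (-0.17), PRIM1 (-0.81), POLD2 (-0.05), RFC3 (-0.26) and RFC5 (-0.27) lost their calls. In the other alternatives POLD2, RFC5, SLBP and POLE2 lost theirs at least once.

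Afatinib alone changed the members by small amounts. It lowered 20 members (40.8%) and raised 2 (CDC6 and RFC1, 4.08%). Of all tested genes 45.4% were called, 23.3% lower and 22% higher. The median log2 fold change of the members was -0.16, against 0 over all tested genes, and no member was called at a 2-fold change, against 2.54% of all tested genes lower and 6.36% higher. The 3 afatinib libraries lay below the 3 DMSO libraries for 23 members, and for 26.8% of all tested genes. Without the 4 KRT5 libraries most of the 22 calls were lost, and the median of the members was -0.09, against 0.02 over all tested genes. In that setting the log2 fold change of CDC6 was 0.36, of MCM7 -0.28, of CDC45 -0.53, of FEN1 -0.58 and of RRM1 -0.37. MCM4 stood at -0.06 and PCNA at 0.03. Of the 22 calls, 10 (POLA1, PCNA, RFC1, LIG1, CLSPN, MCM3, MCM4, RRM2, CHAF1B and CDC6) were lost in at least 1 of the other alternatives. With scaling by library size alone 12 were lower and 5 higher, and all tested genes then split into 4606 higher and 2803 lower, in place of 3571 and 3780, with their median shifted by 0.1 on the log2 scale.

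The combination lowered 45 members and raised 2 (RRM2 and SLBP), where 74.3% of all tested genes were called, 37.1% lower and 37.2% higher. The median was -1.16 on the log2 scale, against -0.01 over all tested genes. At least 2-fold falls were found for 28 members, and for 18.3% of all tested genes. The 3 libraries lay below all DMSO libraries for 44 members (37.1% of all tested genes). Without the 4 KRT5 libraries the median of the members was -1.04, against 0.05 over all tested genes. In that setting CDC6 (-0.14), GMNN (-0.33), RFC5 (-0.24) and RPA1 (0.03) were not called. In the other alternatives GMNN, RFC5 and RPA1 lost their calls at least once. The 3 comparisons share their DMSO libraries, so they are set side by side and not treated as independent.

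**Figure D1:**
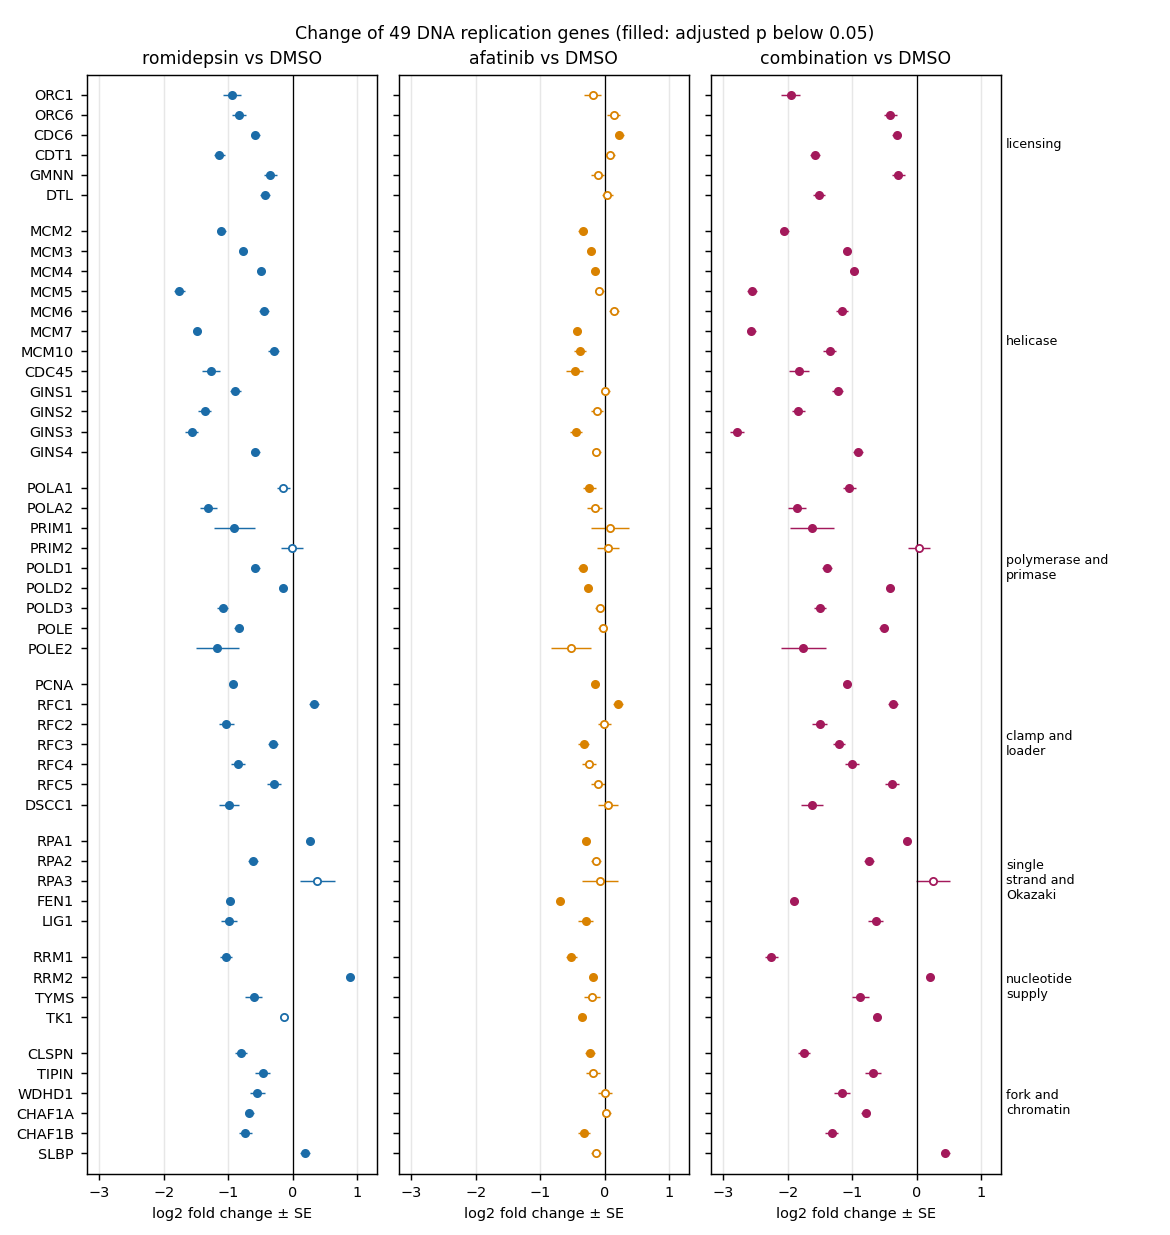
Log2 fold change (x axis, ± SE from edgeR) of each of the 49 replication genes (y axis, grouped by role) against DMSO for romidepsin, afatinib and the combination, 3 libraries a group; filled points passed an adjusted p of 0.05. Most points lie left of 0 with romidepsin and in the combination, from -2.79 for GINS3 to 0.44 for SLBP in the combination, and within -0.70 to 0.22 with afatinib.

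**Figure D2:**
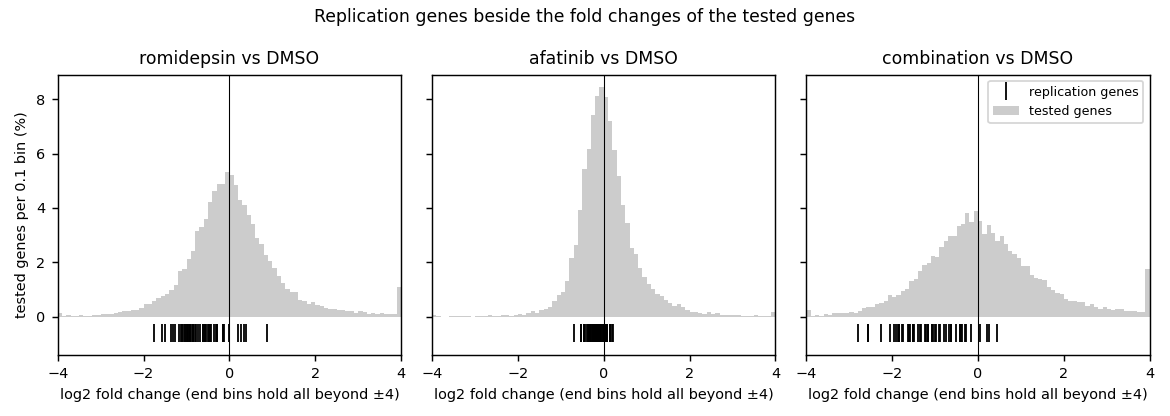
Share of the 16208 tested genes (grey bars, % per bin of 0.1) by log2 fold change against DMSO, with the 49 replication genes as black ticks under the axis. The ticks stand around a median of -0.74 with romidepsin, -0.16 with afatinib and -1.16 in the combination, and the medians of all tested genes are 0, 0 and -0.01.

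Origin licensing genes fell with romidepsin in 6 of 6 cases and in the combination in 6 of 6, while with afatinib 1 rose, none fell and 5 did not pass the test. Their median log2 fold changes were -0.71, -0.97 and 0.06. CDT1, which brings the MCM ring to ORC, had the largest fall with romidepsin. CDT1 (chromosome 16, 88803789 to 88809258) was at 102, 111 and 93.9 CPM in DMSO, 47.9, 46.4 and 44.5 with romidepsin, 111, 105 and 108 with afatinib, and 37.5, 33.1 and 32.1 in the combination. The romidepsin and combination libraries were all below those of DMSO, and the afatinib libraries overlapped them. CDT1 fell by 1.14 (SE 0.08, edgeR adjusted p = 1.82e-18) with romidepsin and by 1.58 (SE 0.08, adjusted p = 6.95e-24) in the combination on the log2 scale, and its value with afatinib was 0.08 (SE 0.07, adjusted p = 0.382).

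ORC1, the largest ORC subunit, had the largest licensing fall in the combination. ORC1 (chromosome 1, 52372829 to 52404423) stood at 22.0, 19.1 and 19.9 CPM in DMSO, 8.85, 11.9 and 11.3 with romidepsin, 18.6, 18.5 and 16.6 with afatinib, and 5.59, 5.96 and 4.13 in the combination. All 3 treated groups lay below DMSO without overlap, and the combination lay below both single drugs. ORC1 fell by 0.94 (SE 0.14) with romidepsin and by 1.96 (SE 0.15, edgeR adjusted p = 1.53e-16) in the combination, and its value with afatinib was -0.19 (SE 0.13, adjusted p = 0.239). DTL, the substrate receptor of the ubiquitin ligase that removes CDT1 in S phase, had afatinib libraries that overlapped those of DMSO. DTL (chromosome 1, 212035553 to 212107400) was at 74.0, 74.5 and 73.8 CPM in DMSO, 49.2, 64.6 and 52.0 with romidepsin, 74.0, 77.7 and 76.0 with afatinib, and 23.4, 27.1 and 26.5 in the combination. The combination stood far below the other 3 groups, with a log2 fold change of -1.52 (SE 0.09, edgeR adjusted p = 2.84e-21) against -0.43 (SE 0.08) for romidepsin and 0.04 (SE 0.08, adjusted p = 0.751) for afatinib.

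CDC6, the loading ATPase, went up with afatinib and down in the other treated groups. CDC6 (chromosome 17, 40287879 to 40304657) was at 75.8, 74.0 and 67.1 CPM in DMSO, 49.4, 49.6 and 46.2 with romidepsin, 87.4, 80.9 and 84.2 with afatinib, and 59.0, 60.2 and 55.8 in the combination. No group overlapped another, and romidepsin was lowest. The log2 fold changes were -0.58 (SE 0.07, edgeR adjusted p = 2.49e-09), 0.22 (SE 0.07, adjusted p = 0.00974) and -0.31 (SE 0.07, adjusted p = 0.000169). The rise with afatinib lost its call without DMSO 3 (edgeR adjusted p = 0.0786) and without a filter (edgeR adjusted p = 0.0758). The fall in the combination shrank to -0.14 without the KRT5 libraries. ORC6, another ORC subunit, had a like order of means, at 25.5 CPM in DMSO, 14.3 with romidepsin, 28.1 with afatinib and 19.1 in the combination. Its value with afatinib was not called (0.14, SE 0.10, edgeR adjusted p = 0.271). The mildest licensing change was that of GMNN (geminin), the inhibitor of CDT1, which fell by 0.35 with romidepsin and by 0.29 in the combination.

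The helicase had the largest median falls of the 7 roles with romidepsin and in the combination, though not with afatinib. All 12 of its genes fell with romidepsin and in the combination, and 7 of 12 fell with afatinib, with median log2 fold changes of -1.0, -1.59 and -0.19. Summed over the role, CPM was 47.6% to 49.5% of the DMSO mean with romidepsin, 81.6% to 85.6% with afatinib and 29.5% to 31.5% in the combination. MCM7, a ring subunit, had the highest level per length of the helicase genes. MCM7 (chromosome 7, 100092728 to 100101940) was at 606, 665 and 576 CPM in DMSO, 230, 211 and 216 with romidepsin, 446, 482 and 442 with afatinib, and 112, 89.1 and 111 in the combination. The groups were fully separate, in the order DMSO, afatinib, romidepsin and combination. MCM7 fell by 1.49 (SE 0.06) with romidepsin, by 0.43 (SE 0.06, edgeR adjusted p = 1.46e-07) with afatinib and by 2.57 (SE 0.07, adjusted p = 2.12e-33) in the combination.

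MCM5, the ring subunit beside MCM2, had the largest fall with romidepsin among all members. MCM5 (chromosome 22, 35400134 to 35425431) was at 159, 159 and 142 CPM in DMSO, 47.8, 42.2 and 45.9 with romidepsin, 143, 149 and 142 with afatinib, and 28.0, 21.8 and 28.4 in the combination. DMSO and afatinib overlapped, romidepsin lay below both, and the combination lay lowest. The log2 fold changes were -1.76 (SE 0.08, edgeR adjusted p = 2.09e-25), -0.09 (SE 0.07, adjusted p = 0.329) and -2.56 (SE 0.08, adjusted p = 1.75e-31). MCM6 was the mildest of the ring genes with romidepsin. MCM6 (chromosome 2, 135839626 to 135876443), whose E2F words are printed above, was at 56.3, 62.9 and 53.5 CPM in DMSO, 41.8, 45.7 and 39.6 with romidepsin, 63.3, 62.5 and 63.7 with afatinib, and 27.7, 24.6 and 25.1 in the combination. Its afatinib libraries overlapped DMSO at the upper end, and those of the combination were separate from all others. MCM6 fell by 0.45 (SE 0.08) with romidepsin and by 1.16 (SE 0.09, edgeR adjusted p = 5.61e-17) in the combination, and its value with afatinib was 0.14 (SE 0.08, adjusted p = 0.163).

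GINS3, a subunit of the 4-part GINS complex, had the largest fall of all members in the combination. GINS3 (chromosome 16, 58295080 to 58406144) was at 69.4, 58.6 and 56.8 CPM in DMSO, 17.5, 21.9 and 23.0 with romidepsin, 46.3, 42.4 and 46.3 with afatinib, and 9.83, 8.63 and 8.33 in the combination. The groups did not overlap. GINS3 fell by 1.57 (SE 0.10) with romidepsin, by 0.45 (SE 0.09, edgeR adjusted p = 5.29e-05) with afatinib and by 2.79 (SE 0.11, adjusted p = 2.07e-27) in the combination, which left 0.144 of the DMSO level. The fall with afatinib did not pass without the KRT5 libraries (adjusted p = 0.095). CDC45, which joins GINS and the ring, had the largest helicase fall with afatinib. CDC45 (chromosome 22, 19479459 to 19520612) was at 16.9, 20.0 and 20.8 CPM in DMSO, 8.59, 7.91 and 7.42 with romidepsin, 12.8, 15.4 and 13.6 with afatinib, and 5.59, 4.58 and 6.04 in the combination. Again the groups were separate, and the fall with afatinib was 0.47 on the log2 scale (SE 0.13, edgeR adjusted p = 0.00344).

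Of the other helicase genes, MCM2 fell by 2.06, GINS2 by 1.84, MCM10 by 1.35, GINS1 by 1.23, MCM3 by 1.08, MCM4 by 0.98 and GINS4 by 0.91 on the log2 scale in the combination. MCM10, an initiation factor that acts as the ring is activated, fell by only 0.30 with romidepsin and 0.39 with afatinib. MCM2 and GINS4 are less certain, since 23.6% and 23.4% of their exon bases also belong to another annotated gene, and reads there were not assigned to either.

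**Figure D3:**
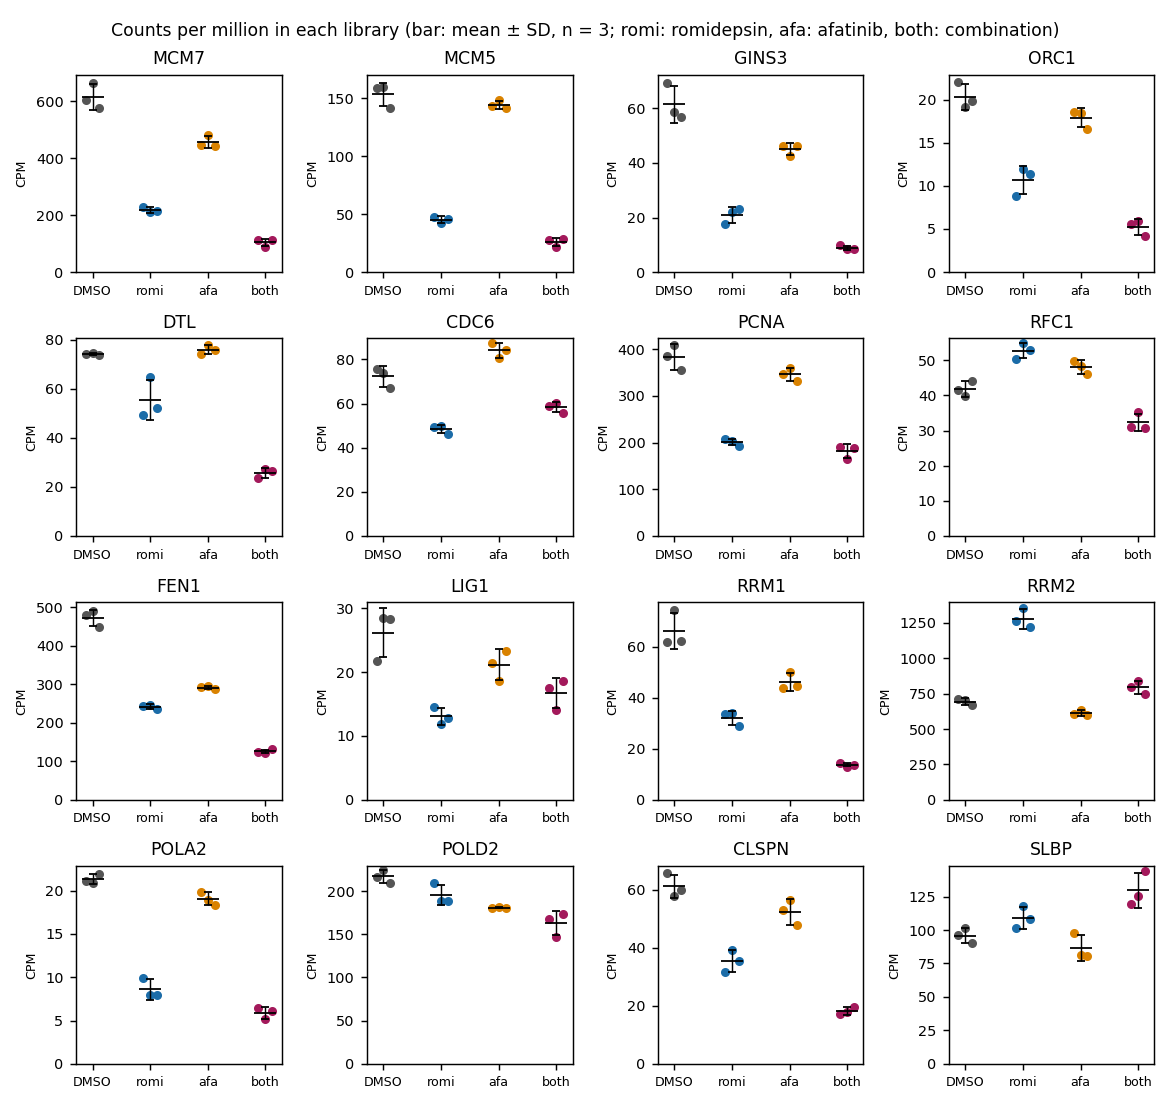
CPM in each library (points) of 16 replication genes in DMSO, romidepsin (romi), afatinib (afa) and the combination (both), with mean and SD of 3 libraries; axes start at 0. MCM7, GINS3, FEN1 and RRM1 step down from DMSO to afatinib to romidepsin to the combination, whereas RRM2 peaks with romidepsin at 1218 to 1356 CPM and SLBP is highest in the combination at 119 to 144 CPM.

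Among the polymerase and primase genes, 7 of 9 fell with romidepsin, 3 with afatinib and 8 in the combination, and none rose, with median log2 fold changes of -0.84, -0.16 and -1.39. POLA2, the regulatory subunit of polymerase alpha, had the largest falls with romidepsin and in the combination. POLA2 (chromosome 11, 65261920 to 65305589) was at 21.1, 20.9 and 22.0 CPM in DMSO, 9.97, 7.91 and 7.91 with romidepsin, 19.9, 18.9 and 18.4 with afatinib, and 6.49, 5.12 and 6.11 in the combination. The groups did not overlap, although the afatinib libraries were close to DMSO. POLA2 fell by 1.31 (SE 0.13) with romidepsin and by 1.86 (SE 0.14, edgeR adjusted p = 9.1e-17) in the combination, and its value with afatinib was -0.16 (SE 0.12, adjusted p = 0.285). Its exons share 39.4% of their bases with other annotated genes, so its level is less certain. The catalytic partner POLA1 did not pass with romidepsin (-0.15, adjusted p = 0.169 by edgeR) and fell by 1.05 in the combination.

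POLD2, an accessory subunit of polymerase delta, had the highest level per length of the role and small changes. POLD2 (chromosome 7, 44114681 to 44124358) was at 216, 225 and 210 CPM in DMSO, 209, 188 and 189 with romidepsin, 181, 182 and 180 with afatinib, and 168, 147 and 173 in the combination. All treated libraries were below the DMSO libraries, by small margins. The combination lowered POLD2 by 0.41 (SE 0.06, edgeR adjusted p = 4.76e-08). The fall of 0.15 with romidepsin (edgeR adjusted p = 0.0298) lost its call with DESeq2 (adjusted p = 0.0635), library size scaling and a fit of the compared groups alone. It also lost it on leaving out any of 6 libraries one at a time (DMSO 1 or 2, romidepsin 2 or 3, afatinib 1 or 3). The catalytic POLD1 fell by 1.39 and POLD3 by 1.5 in the combination.

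POLE2, a subunit of polymerase epsilon, was near the lower end of what these libraries measure. POLE2 (chromosome 14, 49643555 to 49688422) was at 2.50, 2.12 and 5.26 CPM in DMSO, 1.29, 1.37 and 1.71 with romidepsin, 2.76, 1.80 and 2.33 with afatinib, and 1.08, 0.993 and 0.840 in the combination. DMSO 3 stood well above the other DMSO libraries, and afatinib overlapped DMSO. Romidepsin lowered it by 1.17 (SE 0.34, edgeR adjusted p = 0.00229), a call that was lost without DMSO 3 (-0.66, adjusted p = 0.121), and the combination lowered it by 1.76 (SE 0.35, adjusted p = 1.66e-05). Catalytic POLE, at 148 CPM in DMSO, fell to 82.0 with romidepsin and stood at 104 in the combination. Of the primase pair, PRIM1 (3.00 CPM in DMSO, with 22.1% of its exon bases shared) fell by 1.63 in the combination, while PRIM2 was at 9.20, 9.16, 9.49 and 9.55 CPM and passed in no comparison.

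Of the clamp and its loaders, 6 of 7 fell with romidepsin and 1 rose, 2 fell and 1 rose with afatinib, and all 7 fell in the combination. The median log2 fold changes were -0.85, -0.10 and -1.08. PCNA, the sliding clamp, had the highest level per length of all 49 members. PCNA (chromosome 20, 5114953 to 5126626) was at 386, 409 and 354 CPM in DMSO, 208, 203 and 193 with romidepsin, 346, 360 and 331 with afatinib, and 190, 164 and 189 in the combination. Afatinib overlapped DMSO, and romidepsin and the combination lay close together and far below both. PCNA fell by 0.93 (SE 0.06) with romidepsin and by 1.08 (SE 0.06, edgeR adjusted p = 1.89e-21) in the combination. The difference of the combination from romidepsin was -0.15 (SE 0.06, adjusted p = 0.0329). It lost its call with DESeq2 (adjusted p = 0.135), with scaling by library size or RLE, without a filter and in a fit of the compared groups alone. It was also lost without any 1 of DMSO 1, romidepsin 1, romidepsin 2, afatinib 1, afatinib 3 and combination 2. The fall of 0.15 with afatinib (edgeR adjusted p = 0.0387) was lost with DESeq2 (adjusted p = 0.0614) and with scaling by library size alone. That fall was also lost without any 1 of DMSO 1, DMSO 2, afatinib 1 and afatinib 3, and turned to 0.03 without the KRT5 libraries.

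RFC1, the large subunit of the main clamp loader, rose with each drug and fell with both. RFC1 (chromosome 4, 39287456 to 39366375) was at 41.5, 39.8 and 44.2 CPM in DMSO, 50.5, 54.9 and 53.0 with romidepsin, 49.9, 48.4 and 46.1 with afatinib, and 31, 35.2 and 30.9 in the combination. Both single-drug groups lay above DMSO and the combination lay below it, with no overlap. The log2 fold changes were 0.33 (SE 0.08, edgeR adjusted p = 0.000453), 0.20 (SE 0.08, adjusted p = 0.0439) and -0.37 (SE 0.08, adjusted p = 0.000132). The rise with afatinib was not called with DESeq2 (adjusted p = 0.0788), without a filter, with RLE scaling or with a replicate block. Nor was it called without any 1 of DMSO 1, DMSO 2, romidepsin 3, afatinib 1 and afatinib 2. The rise with romidepsin and the fall in the combination kept their calls in every alternative run.

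RFC2 and RFC3, small subunits of the loader, both fell in the combination and differed in their values with the single drugs. RFC2 (chromosome 7, 74231499 to 74254458) was at 28.3, 25.3 and 27.9 CPM in DMSO, 13.5, 12.6 and 13.8 with romidepsin, 27.5, 27.2 and 26.7 with afatinib, and 9.74, 8.40 and 10.5 in the combination. DMSO and afatinib overlapped, and the log2 fold changes were -1.03 (SE 0.11), -0.01 (SE 0.10) and -1.51 (SE 0.12, edgeR adjusted p = 2.92e-16). RFC3 (chromosome 13, 33818069 to 33966558) was at 74.8, 65.8 and 70.1 CPM in DMSO, 51.8, 65.6 and 53.6 with romidepsin, 52.5, 60.3 and 54.6 with afatinib, and 31.2, 31 and 29.0 in the combination. Both single-drug groups were slightly below DMSO and overlapped each other, and the combination was far below all. RFC3 fell by 0.31 (SE 0.08), 0.33 (SE 0.08) and 1.21 (SE 0.09, edgeR adjusted p = 1.47e-17), and without the KRT5 libraries the falls with the single drugs did not pass (adjusted p = 0.0704 and 0.113).

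DSCC1, part of the alternative loader that serves sister chromatid cohesion, had the largest combination fall of the role. DSCC1 was at 19.5, 11.8 and 17.5 CPM in DMSO, 9.11, 6.53 and 8.81 with romidepsin, 16.6, 15.2 and 19.0 with afatinib, and 5.05, 6.26 and 4.58 in the combination. The afatinib libraries overlapped DMSO, and the other treated groups lay below. DSCC1 fell by 0.99 (SE 0.16) with romidepsin and by 1.62 (SE 0.17, edgeR adjusted p = 5.37e-12) in the combination. RFC4 fell by 1.0 and RFC5 by 0.39 in the combination.

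The single-strand binding and Okazaki genes split. FEN1, the flap nuclease that trims Okazaki fragments, had the largest fall with afatinib of all 49 members. FEN1 (chromosome 11, 61792911 to 61797238) was at 481, 490 and 450 CPM in DMSO, 243, 247 and 236 with romidepsin, 293, 295 and 287 with afatinib, and 125, 122 and 131 in the combination. The groups were fully separate. FEN1 fell by 0.97 (SE 0.05) with romidepsin, by 0.70 (SE 0.05, edgeR adjusted p = 2.05e-15) with afatinib and by 1.91 (SE 0.06, adjusted p = 1.41e-32) in the combination. LIG1, the ligase that then seals the nick, was lowest with romidepsin alone. LIG1 (chromosome 19, 48115445 to 48170603) was at 21.8, 28.5 and 28.3 CPM in DMSO, 14.5, 11.9 and 12.9 with romidepsin, 21.5, 18.7 and 23.4 with afatinib, and 17.5, 14.1 and 18.6 in the combination. The combination overlapped romidepsin and lay below DMSO. LIG1 fell by 0.99 (SE 0.13, edgeR adjusted p = 3.29e-09) with romidepsin and by 0.64 (SE 0.12, adjusted p = 7.57e-06) in the combination. Its fall of 0.30 with afatinib (edgeR adjusted p = 0.0376) was lost with DESeq2 (adjusted p = 0.0887) and with scaling by library size alone. It was also lost without any 1 of DMSO 2, DMSO 3, afatinib 1 and afatinib 2.

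RPA1, the large subunit of the single-strand binding protein RPA, rose with romidepsin. RPA1 (chromosome 17, 1829702 to 1900082) was at 157, 153 and 141 CPM in DMSO, 176, 189 and 175 with romidepsin, 126, 121 and 123 with afatinib, and 130, 135 and 140 in the combination. Romidepsin lay above DMSO, and the other 2 treated groups lay below it. The log2 fold changes were 0.26 (SE 0.06, edgeR adjusted p = 0.000218), -0.29 (SE 0.06, adjusted p = 0.000115) and -0.16 (SE 0.06, adjusted p = 0.0169). The last was not called with DESeq2 (adjusted p = 0.0698), with scaling by library size or RLE, or in a fit of the compared groups alone. It was also lost without any 1 of DMSO 1, afatinib 1, afatinib 3 and combination 1. Without the KRT5 libraries it was 0.03, and the value with afatinib shrank to -0.16. RPA2 fell by 0.62 with romidepsin and by 0.74 in the combination. RPA3, at 2.63 to 3.60 CPM in the group means, passed in no comparison.

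Nucleotide supply held the widest contrast within a role, between the subunits of ribonucleotide reductase. RRM1, the large catalytic subunit, fell in all treated groups and had the largest fall outside the helicase genes in the combination. RRM1 (chromosome 11, 4094707 to 4138932) was at 61.9, 74.3 and 62.4 CPM in DMSO, 33.5, 34.0 and 28.9 with romidepsin, 43.8, 50.3 and 44.4 with afatinib, and 14.4, 13.1 and 13.8 in the combination. The groups were fully separate. RRM1 fell by 1.04 (SE 0.09) with romidepsin, by 0.52 (SE 0.09, edgeR adjusted p = 2.02e-06) with afatinib and by 2.26 (SE 0.10, adjusted p = 9.55e-26) in the combination.

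RRM2, the small subunit that carries the radical and normally limits the enzyme in cycling cells, had the largest rise of all members. RRM2 (chromosome 2, 10120698 to 10211725) was at 709, 705 and 669 CPM in DMSO, 1265, 1356 and 1218 with romidepsin, 603, 634 and 598 with afatinib, and 799, 839 and 747 in the combination. Romidepsin was far above the rest, the combination lay between it and DMSO, and afatinib was lowest. RRM2 rose by 0.88 (SE 0.05, edgeR adjusted p = 1.55e-19) with romidepsin and by 0.20 (SE 0.05, adjusted p = 0.00119) in the combination. Its fall of 0.18 with afatinib (adjusted p = 0.00497) was lost without any 1 of DMSO 1, afatinib 1 and afatinib 3, with scaling by library size alone and without the KRT5 libraries. TK1, the salvage thymidine kinase, was at 174, 159, 136 and 113 CPM in DMSO, romidepsin, afatinib and the combination and fell by 0.36 with afatinib and 0.62 in the combination. Without the KRT5 libraries the value of TK1 with afatinib was -0.21 (edgeR adjusted p = 0.118). TYMS, thymidylate synthase, fell by 0.61 with romidepsin and by 0.88 in the combination, with 47.5% of its exon bases shared with ENOSF1 and TYMSOS.

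Of the fork protection and chromatin assembly genes, 5 of 6 fell with romidepsin and in the combination, and 2 with afatinib. CLSPN (claspin), the mediator between ATR and its checkpoint kinase at stalled forks, had the largest falls of the role with romidepsin and in the combination. CLSPN (chromosome 1, 35720218 to 35769978) was at 65.7, 58.0 and 59.8 CPM in DMSO, 31.5, 39.2 and 35.5 with romidepsin, 53.0, 56.5 and 47.7 with afatinib, and 17.1, 18 and 19.6 in the combination. The groups did not overlap. CLSPN fell by 0.80 (SE 0.09) with romidepsin and by 1.75 (SE 0.09, edgeR adjusted p = 4.64e-22) in the combination. Its fall of 0.23 with afatinib (edgeR adjusted p = 0.0257) was lost with DESeq2 (adjusted p = 0.0563) and with scaling by library size alone. It was also lost without any 1 of DMSO 1, afatinib 1 and afatinib 3, and shrank to -0.09 without the KRT5 libraries. CHAF1B, a subunit of the histone chaperone CAF-1, had the largest afatinib fall of the role. CHAF1B (chromosome 21, 36385392 to 36419015) was at 46.2, 44.3 and 38.5 CPM in DMSO, 25.9, 27.0 and 24.6 with romidepsin, 33.4, 35.6 and 34.7 with afatinib, and 16.3, 16.4 and 18.9 in the combination. The groups were separate, and CHAF1B fell by 0.74 (SE 0.10), 0.32 (SE 0.09, edgeR adjusted p = 0.00398) and 1.32 (SE 0.10), of which the fall with afatinib was lost without DMSO 1 (adjusted p = 0.0625), with scaling by library size alone (adjusted p = 0.0502) and without the KRT5 libraries (-0.13, adjusted p = 0.579).

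SLBP, which binds the stem loop at the end of replication-dependent histone mRNAs, was the member with the largest rise in the combination. SLBP (chromosome 4, 1692731 to 1712344) was at 96.0, 101 and 90 CPM in DMSO, 101, 118 and 108 with romidepsin, 97.7, 81.6 and 80.8 with afatinib, and 119, 126 and 144 in the combination. The combination lay above all other groups, and romidepsin lay barely above DMSO. SLBP rose by 0.44 (SE 0.07, edgeR adjusted p = 8.66e-07) in the combination. Its rise of 0.19 with romidepsin (edgeR adjusted p = 0.0293) was lost with DESeq2 (adjusted p = 0.0742) and without a filter. It was also lost without any 1 of DMSO 3, romidepsin 2 and romidepsin 3. The large CAF-1 subunit CHAF1A fell by 0.79, the fork protein WDHD1 by 1.16 and TIPIN, the partner of TIMELESS, by 0.68 in the combination, with 21.1% of the exon bases of TIPIN shared with another gene.

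The combination was then set against each single drug, where additive drug effects can also give a lower level. Against romidepsin it lowered 33 members and raised 5 (ORC6, CDC6, POLE, LIG1 and SLBP), where 54.3% of all tested genes were called by edgeR, 29.2% lower and 25.1% higher. The median log2 difference was -0.48, against -0.03 over all tested genes, and 6 members were at least 2-fold lower (4.8% of all tested genes). All 12 helicase genes were lower than with romidepsin, by 0.31 (MCM3) to 1.22 (GINS3) on the log2 scale. RRM1 was lower by the same 1.22 (SE 0.10, edgeR adjusted p = 5.84e-14), and DTL by 1.09 (SE 0.09, adjusted p = 7.64e-15). Against afatinib the combination lowered 43 members and raised 2 (RRM2 and SLBP), where 69.2% of all tested genes were called, 35.8% lower and 33.4% higher, and the median was -0.93 against -0.02. The 3 libraries of the combination lay above those of afatinib for 3 members (RPA1, RRM2 and SLBP) and for 35.1% of all tested genes.

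Afatinib alone left 13 members without a call that were lower in the combination than with romidepsin. They were ORC1, CDT1, DTL, MCM5, MCM6, GINS1, GINS2, GINS4, POLA2, POLD3, RFC2, DSCC1 and WDHD1. Of all tested genes 45.4% were called with afatinib and 29.2% were lower in the combination than with romidepsin, and this pattern was not counted among them. Of the 13, 9 had a called interaction below 0. GINS2, GINS4, POLA2 and POLD3 did not (edgeR adjusted p = 0.0648, 0.151, 0.136 and 0.0512). The interaction is the combination against romidepsin minus afatinib against DMSO. Members chosen by those comparisons therefore tend below 0 beforehand, and the 9 add no separate evidence. DTL is the clearest case by size, with a log2 value of 0.04 (SE 0.08) for afatinib against DMSO and of -1.09 (SE 0.09) for the combination against romidepsin. LIG1 went the other way, at 0.35 above romidepsin (SE 0.13, edgeR adjusted p = 0.0248), a call that was lost without any 1 of romidepsin 2, romidepsin 3, combination 1 and combination 3.

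The departure of the combination from additive log2 changes was tested as an interaction in the same fit. The interaction was below 0, meaning a lower level than the sum gives, for 22 called members and above 0 for 3 (SLBP, POLE and LIG1), where 30.2% of all tested genes were called, 18.5% below 0 and 11.7% above. The median was -0.32, against -0.06 over all tested genes. Called or not, 39 of 49 members lay below the sum, a count that was not made over all tested genes. Without the KRT5 libraries the median was -0.38, against -0.08 over all tested genes. The helicase genes held 8 of the 22, the clamp and loader genes 4, and licensing 3.

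DTL had the largest interaction, -1.13 (SE 0.12, edgeR adjusted p = 1.11e-10), with a sum of -0.40 for the single drugs and -1.52 in the combination. RFC1 followed at -0.90 (SE 0.12, adjusted p = 2.81e-08), from a sum of 0.53 to -0.37 in the combination. MCM6 had -0.85 (SE 0.12, adjusted p = 1.39e-07), and ORC1 had -0.84 (SE 0.21, adjusted p = 0.0013). GINS3 had -0.77 (SE 0.15, adjusted p = 9.11e-05), and CLSPN had -0.72 (SE 0.13, adjusted p = 1.95e-05). These 6 kept their calls in every alternative run. On the other side, LIG1 lay 0.64 above the sum (SE 0.18, edgeR adjusted p = 0.00426), SLBP 0.40 (SE 0.11, adjusted p = 0.00288) and POLE 0.36, and of these SLBP and POLE were not called without the KRT5 libraries. Of those below the sum, DSCC1 was not called with DESeq2 (adjusted p = 0.0724), without the KRT5 libraries (adjusted p = 0.261) or without any 1 of DMSO 2, romidepsin 1, romidepsin 3, afatinib 3 and combination 3. RFC2 was not called with DESeq2 (adjusted p = 0.055), without a filter, without the KRT5 libraries (adjusted p = 0.131) or without any 1 of DMSO 2, romidepsin 3, afatinib 1 and combination 2. WDHD1 lost its call without the KRT5 libraries (edgeR adjusted p = 0.062), FEN1 without a filter, with RLE scaling or without afatinib 1, and GINS1 without a filter. RFC5 (0.00, SE 0.16, edgeR adjusted p = 0.996), POLD2 (0.00, SE 0.09, adjusted p = 0.992) and PCNA (-0.01, SE 0.09, adjusted p = 0.975) had interactions near 0.

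**Figure D4:**
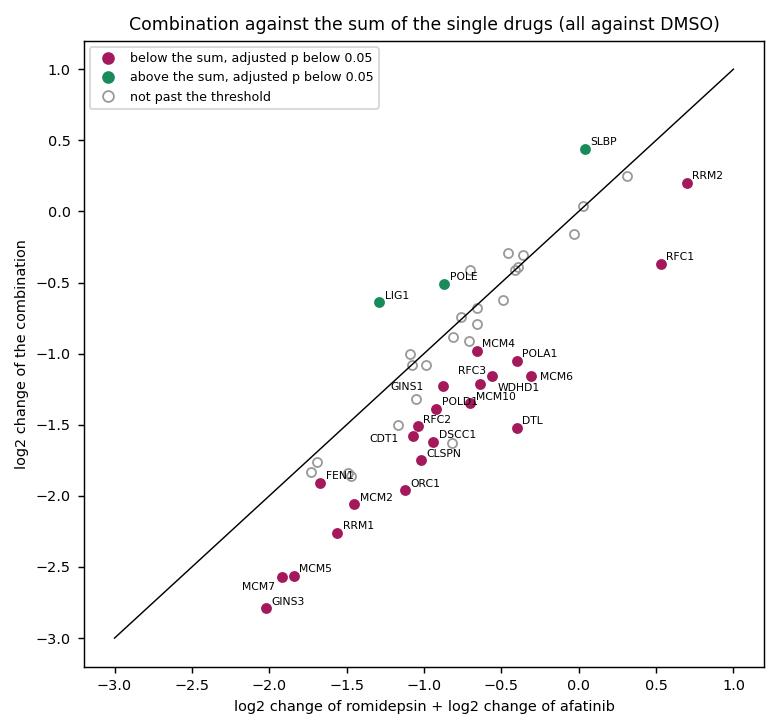
Log2 change of the combination against DMSO (y axis) by the sum of the log2 changes of romidepsin and afatinib (x axis) for the 49 replication genes, with the line of equality; colours mark interactions past an adjusted p of 0.05 by edgeR. Of the members, 22 are marked below the line, with DTL and RFC1 farthest from it, and LIG1, POLE and SLBP above it.

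Within complexes the subunits did not move in step, as levels per gene length (RPKM, which is CPM per kilobase of annotated exons) show. In the MCM ring MCM7 was highest in DMSO at 140 RPKM and MCM6 lowest at 13.9, a ratio of 10.1. In the combination MCM3 was highest at 32 RPKM and MCM5 lowest at 3.59, a ratio of 8.90. MCM7 went from 140 ± 10.3 RPKM in DMSO to 23.7 ± 2.92 in the combination, and MCM3 from 67.3 to 32 (SD, n = 3). The 4 GINS subunits lay within a ratio of 1.43 in DMSO and of 4.15 in the combination, with GINS3 lowest in each group.

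For ribonucleotide reductase, RRM2 stood at 75.8 ± 2.42 RPKM in DMSO and RRM1 at 15.6 ± 1.66, a ratio of 4.85. The ratio was 18.4 with romidepsin, 6.13 with afatinib and 26.7 in the combination, where RRM1 was down to 3.25 ± 0.161 RPKM and RRM2 at 86.9 ± 5.03. POLE exceeded POLE2 by a ratio of 7.98 in DMSO and 19.0 in the combination, and POLD2 exceeded POLD3 by 6.89 and 14.7. Within RPA, RPA3 was at 0.865 RPKM in DMSO, against 36.8 for RPA2. These lengths are the summed exons of all annotated isoforms, so ratios between genes depend on the annotation, and ratios between groups of the same gene do not.

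**Figure D5:**
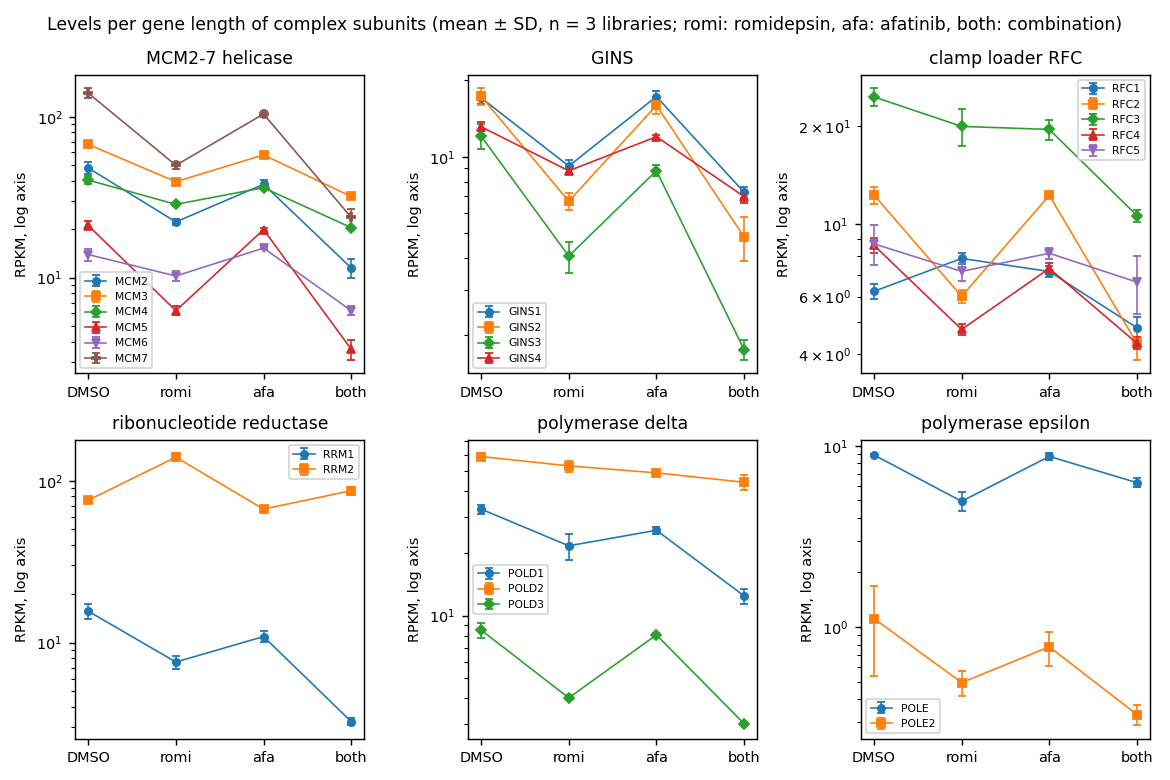
RPKM (log axis, mean ± SD of 3 libraries) of the subunits of 6 replication complexes in DMSO, romidepsin (romi), afatinib (afa) and the combination (both). The lines of RRM1 and RRM2 part with romidepsin and in the combination, GINS3 drops to 1.75 RPKM below the other GINS genes, and RFC1 does not follow RFC2, RFC3 and RFC4 with romidepsin.

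A wider list of 38 replication genes outside the 49 was read in the same fit. Romidepsin lowered 26 of them and raised 3, afatinib lowered 20 and raised 7, and the combination lowered 25 and raised 8. Of all tested genes romidepsin lowered 31.5% and raised 31.1%, afatinib lowered 23.3% and raised 22%, and the combination lowered 37.1% and raised 37.2%, so that the share of the list raised by afatinib (18.4%) was near that of all tested genes. The list had median log2 fold changes of -0.54, -0.25 and -0.88 with romidepsin, afatinib and the combination. TIMELESS, the fork protection partner of TIPIN, fell from 129 ± 2.51 CPM in DMSO to 53.6 ± 3.04 with romidepsin, 96.1 ± 2.73 with afatinib and 25.7 ± 2.27 in the combination (SD, n = 3), a log2 fold change of -2.32 for the last (edgeR adjusted p = 8.81e-31). RNASEH2B, a subunit of the nuclease that removes ribonucleotides from DNA, fell by 1.45 with romidepsin and 1.92 in the combination. The thymidylate kinase gene DTYMK fell by 1.22 with romidepsin. With afatinib the largest falls were those of the topoisomerase genes TOP1 (0.82) and TOP2A (0.67) and of the initiation factor TICRR (0.55), and TOP2A fell by 1.75 in the combination.

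Rises in the wider list included an origin subunit. ORC4 went from 11.2 ± 1.41 CPM in DMSO to 27.7 ± 3.02 with romidepsin and 31.3 ± 1.60 in the combination (log2 fold changes 1.29 and 1.48, edgeR adjusted p = 2.43e-13 and 8.28e-16). SAMHD1, which breaks down deoxynucleotides, rose by 0.93 with romidepsin and by 0.50 in the combination. RRM2B, the alternative small subunit of ribonucleotide reductase, rose by 0.29, 0.30 and 0.58 with romidepsin, afatinib and the combination. The histone chaperone gene ASF1A rose by 0.76 with afatinib.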

How the data were processed

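The authors counted read pairs per gene name in 12 libraries with featureCounts 2.0.0 on GENCODE 31, per the file headers, and deposited raw counts. Both ends had to map, strand was ignored, and reads that map to several places or genes were left out, per the file headers. STAR 2.7.9a, GRCh38.p12 and DESeq2 1.38.1 are named in the submitters' processing notes. A second deposited table was not used here, because its values do not follow the counts. Reads of overlapping exons are therefore missing, antisense reads are not separated, and genes with processed pseudogenes in the table (RRM2, PCNA, FEN1, RFC3, RFC5, RPA2, POLD2 and TYMS) are less certain.

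Counts were filtered with filterByExpr, scaled by TMM and tested with edgeR 4.0.16 in R 4.3.3 (glmQLFit, robust, and glmQLFTest, two-sided) as 4 group means over all 12 libraries, with Benjamini-Hochberg adjustment over 16208 genes and a threshold of 0.05. The biological coefficient of variation was 6.13%. The test was tried on simulated counts with few changed genes, which does not check the scaling where many genes move. SDs are over the 3 libraries of a group. RPKM uses the gene lengths of the table. Coordinates of genes are those of the table.

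The members, roles and lists were chosen with earlier results of these data known. Values in every library are given, in each role, for the member with the largest change in each comparison with DMSO, the highest RPKM, each call against the majority direction and the 6 largest interactions. From the wider list up to 3 genes each way per comparison, with at least 5 CPM, are named by group means or log2 fold changes. A gene of the wider list that meets this rule is not reported here. Alternatives were DESeq2 1.42.0, scaling by library size or by RLE, no filter or at least 1 CPM in 3 libraries, a fit of the compared groups alone, a replicate block, leaving out each library and, chosen after seeing the data, leaving out the KRT5 libraries. Promoters with several starts are shown for the start with most words.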

Additional observations from a re-analysis of the deposited data

Results flagged for a closer look

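In groups of 3 libraries no test for single far libraries was made. The interaction term of edgeR (adjusted p below 0.05) marked 25 members as differing between the combination and the sum of the single-drug changes, and no cause was tested. Licensing genes below the sum on the log2 scale were DTL (-1.13), ORC1 (-0.84) and CDT1 (-0.52). Helicase genes below it were MCM6 (-0.85), GINS3 (-0.77), MCM5 (-0.72), MCM10 (-0.66), MCM7 (-0.65), MCM2 (-0.61), GINS1 (-0.35) and MCM4 (-0.32). The polymerase genes POLA1 (-0.65) and POLD1 (-0.47) and the loader genes RFC1 (-0.90), DSCC1 (-0.69), RFC3 (-0.57) and RFC2 (-0.48) were below it too. So were FEN1 (-0.24), RRM1 (-0.70), RRM2 (-0.50), CLSPN (-0.72) and WDHD1 (-0.60). The calls of DSCC1, RFC2, GINS1, FEN1 and WDHD1 were lost in at least 1 alternative. Above the sum were LIG1 (0.64), SLBP (0.40) and POLE (0.36), and SLBP and POLE lost theirs without the KRT5 libraries.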

How the results depend on the processing

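Of the 222 member values past the threshold, 2 changed sign in an alternative, both without the KRT5 libraries, namely PCNA with afatinib (0.03, adjusted p = 0.841 by edgeR) and RPA1 in the combination (0.03, adjusted p = 0.805). The afatinib counts depended most on the processing. Its 2 higher members became 1 with DESeq2, 5 with library size only and 1 with RLE. They became 0 without a filter by edgeR (1 at an unadjusted p below 0.05), and the 20 lower members became 12 with library size only. Without the KRT5 libraries most afatinib calls were lost, and the median of the members was -0.09, against 0.02 over all tested genes. Leaving out single libraries gave 1 to 2 higher with afatinib (1 without any of DMSO 1 to 3, romidepsin 3, afatinib 1 or afatinib 2) and 14 to 20 lower, and 3 to 5 higher for the combination against romidepsin (3 without combination 3). Against afatinib the 2 higher members of the combination became 2 to 3 on leaving out single libraries and 4 without the KRT5 libraries. The 3 interactions above 0 became 1 without the KRT5 libraries. For these changes the cause was not tested, except that this last setting leaves 1 DMSO library, assumed to vary like the other groups. A fit of the compared groups alone gives no interaction. The counts of lower members stayed at 36 to 41 for romidepsin, 41 to 45 for the combination and 19 to 23 for the interaction. Of the 72 values not past the threshold, 33 changed sign and 12 passed in some alternative.

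Replicate numbers did not pair the libraries, since correlations of same-numbered libraries ran from -0.09 to 0.089 and 4 of 12 libraries correlated best with their own number. A replicate block gave 1 higher member with afatinib in place of 2 (RFC1 was lost) and changed no other call among the 222.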
